A study of Mus musculus with 30 samples.

Results

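The complex that carries light responses into ON bipolar cells of the retina was followed in mouse retinal organoids through its 9 named genes: Grm6, Gnao1, Trpm1, Nyx, Lrit3, Gpr179, Rgs7, Rgs11 and Pcp2. They were found by their gene symbols, 9 rows of 45594 in the gene table and 70 rows of 113468 in the transcript table. The organoids came from a wild-type Nrl-GFP iPSC line, which is 1 clone made from fibroblasts of embryonic day 14.5 mice with doxycycline-inducible lentiviral Oct3/4, Sox2, Klf4 and c-Myc; every group carries this background. Groups are days of differentiation, with 3 libraries labelled as biological replicates on each: iPSCs with feeders at D0, whole aggregates (36 pooled) at D4, and from D7 dissected neural retina, with 30 organoids pooled at D7, 20 at D10 and 12 on the later days (D12, D15, D18, D22, D25, D32). Oxygen was 5% up to D10 and 20% after it, and the medium changed on days 7, 10 and 26, with taurine, 9-cis retinal and IGF-1 from D10 and with amino acids, B27 without vitamin A and serum added from D26. No library was made from sorted cells, so in these bulk samples fewer cells of a type and less RNA per cell cannot be told apart.

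In the dark, photoreceptors release glutamate onto the dendrites of ON bipolar cells, where the receptor mGluR6 (Grm6) activates the G protein Go (alpha subunit from Gnao1), which holds the cation channel TRPM1 closed. Light lowers glutamate, the GTPase activators RGS7 and RGS11 switch Go off, and TRPM1 opens. Nyctalopin (Nyx) and LRIT3 are leucine-rich repeat proteins that place TRPM1 at the dendritic tip, GPR179 anchors the RGS proteins there, and Pcp2 binds Go and was first known from cerebellar Purkinje cells. Loss of GRM6, TRPM1, NYX, LRIT3 or GPR179 causes congenital stationary night blindness in humans. Trpm1 is also a gene of pigment cells, where the factor MITF acts on it and where an intron of it holds the microRNA miR-211.

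Trpm1 (ENSMUSG00000030523) lies at chr7:64153835-64269775 on the plus strand of GRCm38, and its 23 transcripts begin mainly at 2 places 31.5 kb apart. The first place, called the upstream start here, holds the 5′ ends of 4 transcripts between 64153835 and 64153928. The second, the downstream start, holds those of 9 transcripts between 64185381 and 64185601. Because D7 and D32 differed in which of these was used, the 250 bases before each RefSeq start are printed (GRCm38.p6, plus strand), chr7:64153585-64153834 for the upstream one and chr7:64185209-64185458 for the downstream one, with the mature miR-211-5p. Capitals mark E-boxes of the letters CATGTG or CACGTG and the homeodomain motif TAATCC, each searched on both strands, and bases 2 to 8 (the seed) of the microRNA.
Trpm1 upstream: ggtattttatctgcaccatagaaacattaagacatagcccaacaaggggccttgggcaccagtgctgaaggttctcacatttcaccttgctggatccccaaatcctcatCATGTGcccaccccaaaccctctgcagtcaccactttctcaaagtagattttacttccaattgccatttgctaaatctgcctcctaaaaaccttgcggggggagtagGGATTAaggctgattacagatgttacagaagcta
Trpm1 downstream: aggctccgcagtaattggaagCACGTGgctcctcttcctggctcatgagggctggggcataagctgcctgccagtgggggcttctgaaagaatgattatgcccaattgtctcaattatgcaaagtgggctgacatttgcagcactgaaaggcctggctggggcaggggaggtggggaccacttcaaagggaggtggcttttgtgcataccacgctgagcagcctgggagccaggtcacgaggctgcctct
miR-211-5p: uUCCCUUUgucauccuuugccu

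The upstream window held CATGTG, which begins 141 bases before the start, and GGATTA, the reverse of TAATCC, 34 bases before it. The downstream window held CACGTG, 229 bases before its start. Of 32851 mouse promoter windows of this length, 4025 held CATGTG, 1978 (6.02%) CACGTG and 2054 (6.25%) TAATCC on either strand, so such matches are frequent. The miR-211-5p sequence lies at chr7:64205831-64205852, inside introns of 12 of the 23 Trpm1 transcripts and in no exon of them. Its own gene row reached at most 10.6 estimated counts in any of these poly(A) libraries.

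The 30 libraries ranged in depth between 16.8 M and 24.5 M estimated counts, with 19.2 M at the median, and levels below are CPM after TMM scaling, with the mean ± SD over n = 3 libraries a day. The libraries fall into 2 sets by the share of Rpl3 counts that went to its pseudogenes. That share was 12.0 to 31.8% in a smaller set of 12 libraries (every D0 and D7 library, and replicate 2 on each day between D10 and D25) and 70.9 to 86.5% in a larger set of 18 (every D4 and D32 library, and the remaining ones). D32 and D7 therefore stand wholly in different sets. Given the day, Lrit3 was the 1 member of 9 that differed between the sets, lower in the larger set by a log2 change of −1.002 (SE 0.20, adjusted p = 0.0033), and 3.01% of all tested genes differed. The D4 libraries were uneven, and the D4 values of Trpm1 differed widely between all 3.

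Did the members appear together or one after another? All 9 changed over the 10 days, as did 91.4% of the 19897 genes tested, a share near that of the members. They came in an order: Trpm1 was high at D7, Gnao1 was present early, Pcp2 and Rgs11 climbed between D12 and D22, and the receptor Grm6 was high at D32 alone. Nyx, Lrit3, Gpr179 and Rgs7 had day means of 4.34 to 9.49 CPM at D18.

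Grm6, the receptor (ENSMUSG00000000617, chr11:50850685-50866208, plus strand), stood at 70.5, 81.3 and 87.0 CPM in the 3 D32 libraries. On the other 9 days no library passed 0.536 CPM, and the day means lay between 0.0811 CPM at D12 and 0.353 CPM at D25. The D32 libraries thus lay far above every other library, with no overlap. At D25 Grm6 had 11.5, 5.21 and 5.96 estimated counts, against 1448, 1714 and 1763 at D32.

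Gnao1, the Go alpha subunit (ENSMUSG00000031748, chr8:93809966-93969388, plus strand), averaged 4.00 ± 1.09 CPM at D0, 22.7 ± 5.89 at D4, 28.4 ± 4.67 at D7, 43.5 ± 8.06 at D10 and 33.1 ± 7.31 at D12. It then averaged 55.4 ± 10.8 CPM at D15, 91.4 ± 17.3 at D18, 111 ± 17.9 at D22, 154 ± 7.55 at D25 and 177 ± 7.31 at D32. Gnao1 is made in many neurons, and it was the member with the highest CPM at D4, when 4 of the others had day means under 0.5 CPM. At D7 most of its counts lay in Gnao1-003, a processed transcript in the deposited table, as given below.

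Trpm1, the channel, was low at D0 (4.80, 3.36 and 1.94 CPM) and uneven at D4 (1.47, 0.137 and 13.4 CPM). It stood at 962, 825 and 823 CPM at D7, averaged 573 ± 44.3 CPM at D10, 308 ± 97.6 at D12, 29.2 ± 3.07 at D18, 14.5 ± 6.64 at D22 and 6.80 ± 3.64 at D25, and stood at 35.7, 30.9 and 27.9 CPM at D32. At D15 its libraries lay at 108, 59.8 and 60.1 CPM. Its course thus had a high point at D7, a low point at D25 and a second, much smaller rise at D32.

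The 3 scaffold genes had no day mean above 2.18 CPM up to D10. Nyx (ENSMUSG00000051228, chrX:13466110-13489313, plus strand) averaged 4.34 ± 1.53 CPM at D18, 4.91 ± 1.48 at D22, 3.41 ± 1.37 at D25 and 12.6 ± 2.71 at D32. Lrit3 (ENSMUSG00000093865, chr3:129787881-129804030, minus strand) averaged 8.94 ± 2.94 CPM at D18, 11.5 ± 2.56 at D22, 6.92 ± 4.14 at D25 and 27.5 ± 2.20 at D32. In these genes the 3 D32 libraries were the highest of the series. Gpr179 (ENSMUSG00000070337, chr11:97332109-97352077, minus strand) averaged 0.748 ± 0.234 CPM at D10, 3.66 ± 1.96 at D12, 9.49 ± 0.487 at D18, 11.2 ± 5.12 at D25 and 53.7 ± 3.25 at D32. Lrit3 was highest in replicate 2, which belongs to the smaller library set, on D10, D12, D15, D18 and D25, with 11.7 CPM at D25 beside 5.16 and 3.95 in the other libraries.

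Both GTPase activators rose earlier than the receptor. Rgs7 (ENSMUSG00000026527, chr1:175059087-175492500, minus strand) averaged 1.22 ± 0.326 CPM at D7, 6.56 ± 2.48 at D18, 10.4 ± 2.21 at D22 and 12.7 ± 2.60 at D32, and stood at 11.9, 11.2 and 13.6 CPM at D25. Rgs11 (ENSMUSG00000024186, chr17:26202951-26211324, plus strand) averaged 3.18 ± 0.371 CPM at D7, 6.72 ± 2.05 at D12, 17.0 ± 4.03 at D15, 46.3 ± 19.2 at D18, 62.4 ± 9.17 at D22, 93.7 ± 16.3 at D25 and 141 ± 14.1 at D32. The D10 value of Rgs11 was a passing high, with all 3 D10 libraries (12.8 to 23.0 CPM) above all 3 D12 libraries (4.96 to 8.97 CPM). Rgs11 overlaps Arhgdig on the other strand, and since strand use in the counting is not stated here, reads of the pair may not be told apart.

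Pcp2, the Go modulator (ENSMUSG00000004630, chr8:3623371-3625545, minus strand), averaged 0.795 ± 0.268 CPM at D12, 8.85 ± 1.69 at D15, 71.3 ± 13.4 at D22, 47.8 ± 9.61 at D25 and 110 ± 13.1 at D32. At D18 it stood at 35.5, 54.0 and 63.5 CPM, and up to D12 no library passed 1.09 CPM. Pcp2 overlaps Pet100 on the other strand, with the same limit.

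**Figure D1:**
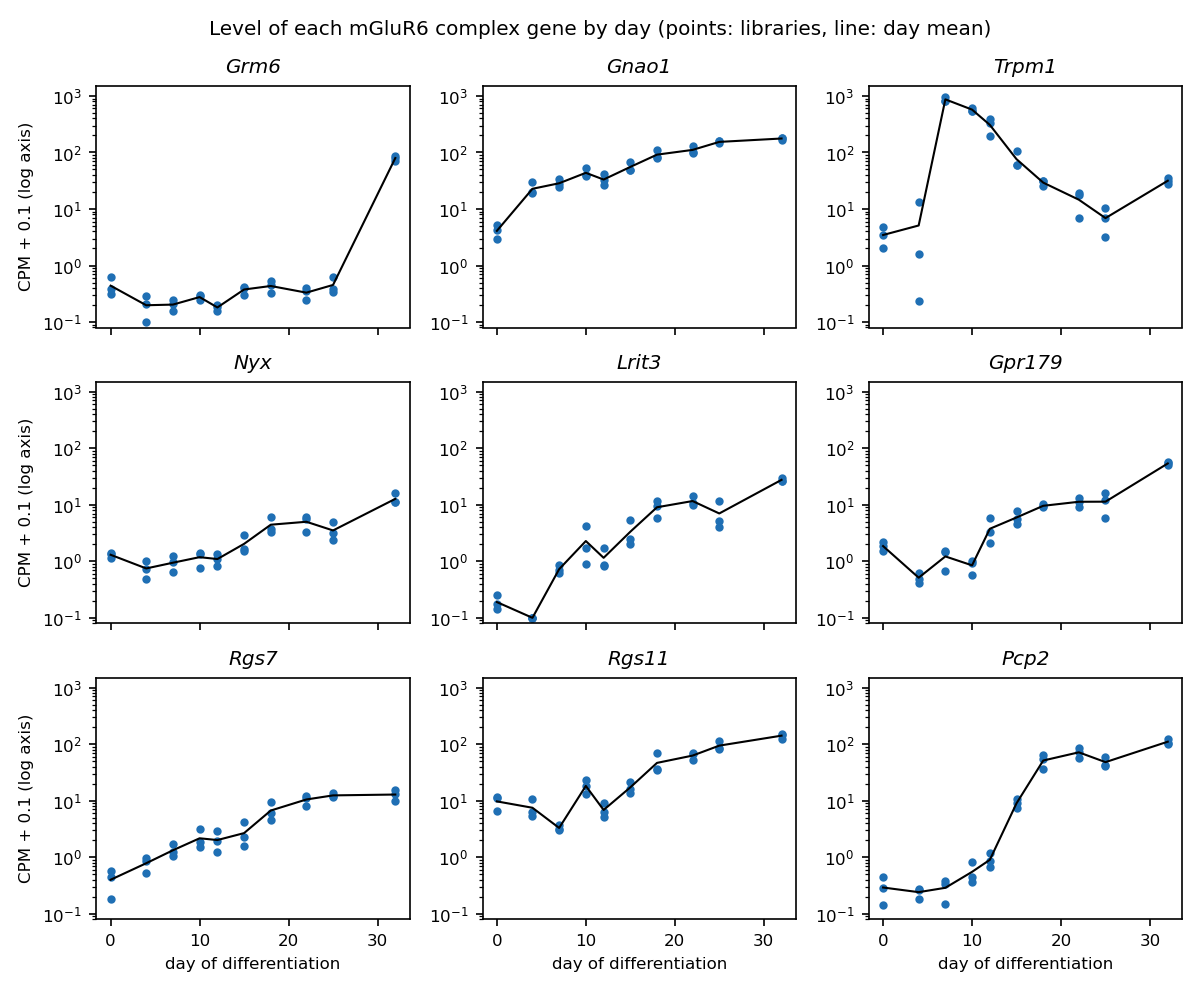
Levels of the 9 members (CPM after TMM scaling, log axis) by day of differentiation, 1 panel a gene; points are libraries and lines join day means (n = 3 a day). Grm6 stays under 0.536 CPM up to D25 and lies at 70.5 to 87.0 CPM at D32, whereas Trpm1 is highest at D7 (823 to 962 CPM).

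Per unit of length, the D32 organoids held most Pcp2, at 278 ± 40.1 TPM (transcripts scaled to a common sum, computed from the deposited counts). Gnao1 at 179 ± 10.6 TPM and Rgs11 at 178 ± 19.1 TPM came next and overlapped each other. Grm6 followed at 56.7 ± 5.94 TPM, and then Trpm1 at 29.2 ± 3.96 TPM and Lrit3 at 28.9 ± 1.40 TPM, which overlapped. Gpr179 at 16.9 ± 1.53 TPM overlapped Rgs7 at 14.2 ± 2.29 TPM, and Nyx was lowest at 5.72 ± 1.44 TPM. At D7 the order was another one, with Trpm1 at 627 ± 69.5 TPM, Gnao1 at 23.7 ± 4.21 TPM and Grm6 lowest at 0.0583 ± 0.0273 TPM.

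At D18 against D7, 8 members rose and Trpm1 fell. The libraries of the 2 days did not overlap in any of the 9 members, while they did not overlap in 60.1% of all tested genes. By edgeR's quasi-likelihood test 9 of 9 members were called, against 49.1% of all genes, and 8 were higher, against 26.8%. The median log2 change was 2.41 in the members and 0.05 in all tested genes.

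Pcp2 stood at 35.5, 54.0 and 63.5 CPM at D18, against 0.284, 0.0456 and 0.229 CPM at D7, the largest log2 change of the members at 8.09 (SE 0.40, adjusted p = 3.4e-14). Rgs11 followed with a log2 change of 3.86 (SE 0.32), Lrit3 with 3.81 (SE 0.55) and Gpr179 with 3.07 (SE 0.39). Rgs7 had a log2 change of 2.41 (SE 0.42), Nyx of 2.35 (SE 0.39) and Gnao1 of 1.68 (SE 0.20), all with adjusted p of 4.0e-05 or less. For Trpm1 the log2 change was −4.90 (SE 0.64, adjusted p = 6.9e-07). The 3 D18 libraries lay at 25.7 to 31.3 CPM, against 823 to 962 CPM at D7. Grm6 stood at 0.429, 0.348 and 0.226 CPM at D18, against 0.149, 0.105 and 0.0556 CPM at D7, a log2 change of 1.64 (SE 0.49, adjusted p = 0.012) on a handful of counts. Its call was lost without D7 replicate 3 (adjusted p = 0.0745) or without D18 replicate 1 (adjusted p = 0.0755).

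Day by day, the members were called 25 times over the 9 steps between neighbouring days. All D4 libraries are in the larger library set, and all D0 and D7 libraries in the smaller. The material also differs between D0, D4 and D7. Day, set and material therefore cannot be told apart at D4 against D0 or at D7 against D4. At D4 against D0, Gnao1 rose by a log2 change of 2.50 (SE 0.23), while Grm6 and Gpr179 fell by 1.98 (SE 0.55) and 2.07 (SE 0.47) on the log2 scale, with 51.9% of all genes called. The call of Grm6 was lost without D0 replicate 2 or D4 replicate 1 (adjusted p up to 0.0978), and Trpm1, not called in that step (log2 change 0.61), had −1.89 without D4 replicate 3 (adjusted p = 0.0178). At D7 against D4, where 42.8% were called, Trpm1 rose 167-fold (log2 change 7.39, SE 0.73, adjusted p = 3.7e-08), Gpr179 rose by 1.42 (SE 0.49) and Rgs11 fell by 1.21 (SE 0.32) on the log2 scale. Lrit3 was also called there, with 0.605, 0.745 and 0.526 CPM at D7 and no count at D4. At D10 against D7 Rgs11, Lrit3 and Gnao1 rose, with 37.8% of all genes called. Calls in these steps that were lost without 1 library were those of Rgs11 at D7 without D4 replicate 1 (adjusted p = 0.0622; with the library set as a term its log2 change was −0.85 and its adjusted p 0.0536), of Gpr179 at D7 without D4 replicate 1 or 3 or D7 replicate 2 or 3 (up to 0.0842), and of Gnao1 at D10 without D7 replicate 2 or 3 or D10 replicate 3 (up to 0.121). The log2 change of Lrit3 at D10 was 1.80, and without D10 replicate 2 it was 0.94 (adjusted p = 0.201); its call was lost also without D7 replicate 3 (0.0532).

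From D10 to D25 few genes of the series changed between neighbouring days. At D12 against D10, with 4.41% of all genes called, Gpr179 rose by 2.29 (SE 0.40, adjusted p = 0.0033) and Rgs11 fell by 1.42 (SE 0.29, adjusted p = 0.0095) on the log2 scale. At D15 against D12, with 7.41% called, Pcp2 rose by 3.46 (SE 0.32, adjusted p = 1.7e-07), Rgs11 by 1.33 (SE 0.30) and Gnao1 by 0.74 (SE 0.20) on the log2 scale, and Trpm1 fell by 2.02 (SE 0.57). At D18 against D15, with 2.89% called, Pcp2 rose by 2.52 (SE 0.26, adjusted p = 1.5e-06) and Rgs11 by 1.44 (SE 0.28), while Gnao1 (log2 change 0.72, SE 0.20, adjusted p = 0.046) lost its call in 18 of the 30 fits that left out 1 library (adjusted p up to 0.241). DESeq2 called 6 members at D18 against D15, where edgeR called 3. Between D10 and D25 same-numbered libraries deviated alike from their day means. Replicate 2 is also the smaller library set there, so number and set cannot be told apart. With the replicate number as a block Lrit3 was also called, at D15 against D12 (log2 change 1.59, adjusted p = 0.0197) and at D18 against D15 (1.55, adjusted p = 0.0215). With the library set as a term its adjusted p was 0.0073 and 0.0062 in these steps. Rgs11 lost its call at D12 without D10 replicate 3 (adjusted p = 0.0786) and at D18 without D18 replicate 3 (0.0568). At D15, Trpm1 lost its call without D12 replicate 1 or 3 or D15 replicate 2 or 3 (up to 0.125), and Gnao1 without D12 replicate 2 or 3 or D15 replicate 3 (up to 0.157). At D22 against D18 (8.2% of all genes called) and at D25 against D22 (2.47%) edgeR called 0 members. At an unadjusted p below 0.05 it gave 0 and 3 members, and DESeq2 also called 0 in both steps.

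What changed by D32? Grm6 was 228-fold higher than at D25, and 5 further members rose with it, while Gnao1, Rgs11 and Rgs7 did not pass the test. Of the 9 members 6 were called higher at D32 against D25, and 9.31% of all tested genes were called higher. The libraries did not overlap between these days in 8 members, and in 42.9% of all genes. The medium change on day 26 falls between D25 and D32, so the day and the medium cannot be told apart.

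The log2 change of Grm6 at D32 against D25 was 7.83 (SE 0.34, adjusted p = 4.6e-14). Gpr179 stood at 50.4, 56.9 and 53.9 CPM at D32, against 12.29, 5.69 and 15.8 CPM at D25, with a log2 change of 2.26 (SE 0.34, adjusted p = 2.0e-05). Trpm1 stood at 35.7, 30.9 and 27.9 CPM at D32, against 10.4, 3.09 and 6.95 CPM at D25, with a log2 change of 2.21 (SE 0.60, adjusted p = 0.0081). In both genes every D32 library was above every D25 library. Without D25 replicate 2, the lowest Trpm1 library, the change of Trpm1 was 1.86 and its adjusted p was 0.0533. Lrit3 had a log2 change of 1.99 (SE 0.46), Nyx of 1.88 (SE 0.36) and Pcp2 of 1.20 (SE 0.24). Rgs11 differed by a log2 change of 0.59 (adjusted p = 0.129), Gnao1 by 0.20 (adjusted p = 0.513) and Rgs7 by 0.05 (adjusted p = 0.952).

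Against D18 the D32 libraries were higher in 8 members, while 20.6% of all tested genes were called higher and 44.3% in either direction. The libraries of the 2 days did not overlap in 8 members, and in 56.4% of all genes. The median log2 change was 1.54 in the members and −0.01 in all tested genes. Grm6 was 223-fold higher (log2 change 7.80, SE 0.34, adjusted p = 8.2e-15), followed by Gpr179 at 2.50 (SE 0.34), Lrit3 at 1.62 (SE 0.46), Rgs11 at 1.60 (SE 0.28), Nyx at 1.54 (SE 0.35) and Pcp2 at 1.11 (SE 0.24) on the log2 scale. Gnao1 had a log2 change of 0.95 (SE 0.20) and Rgs7 of 0.95 (SE 0.38, adjusted p = 0.045). The call of Rgs7 was the least firm: it was lost in the libraries of the larger set alone (adjusted p = 0.157), with the set as a term (0.0547), and in 13 of the 30 fits without 1 library, up to an adjusted p of 0.186 without D18 replicate 1. Trpm1 stood at 35.7, 30.9 and 27.9 CPM at D32, against 31.3, 25.7 and 30.6 CPM at D18, groups that overlapped, with a log2 change of 0.11 (SE 0.56, adjusted p = 0.898).

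Over the whole span, D32 against D7, 8 members were higher and Trpm1 was lower, and all 9 were called. Of all tested genes 65.5% were called, 34% higher and 31.5% lower. The libraries did not overlap in any member, nor in 73.1% of all genes. The median log2 change was 5.43 in the members and 0.09 in all tested genes. Grm6 changed by 9.44 (SE 0.39, adjusted p = 2.4e-16) on the log2 scale, with only 2.89, 1.95 and 0.977 estimated counts in the D7 libraries. Pcp2 changed by 9.20 (SE 0.40), Gpr179 by 5.57 (SE 0.41), Rgs11 by 5.46 (SE 0.34), Lrit3 by 5.43 (SE 0.57), Nyx by 3.89 (SE 0.40), Rgs7 by 3.36 (SE 0.43) and Gnao1 by 2.63 (SE 0.21). Trpm1 was 27.6-fold lower (log2 change −4.79, SE 0.64, adjusted p = 3.5e-07). These 9 calls remained with the library set as a term in the model. Only the days from D10 to D25 hold libraries of both sets. The term rests on those days and cannot separate set from day in this comparison.

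**Figure D2:**
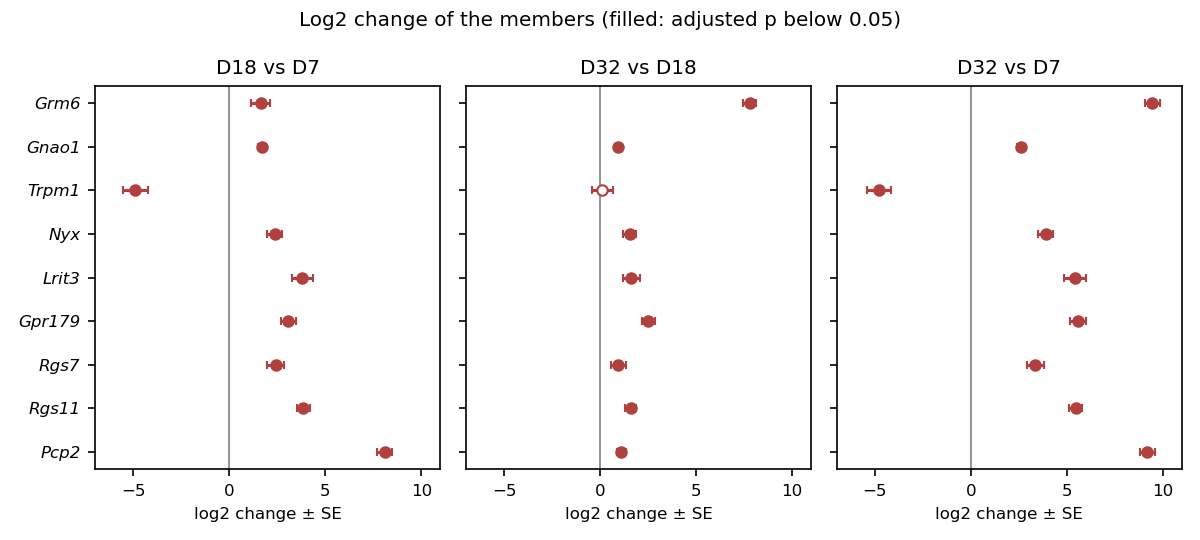
Log2 changes of the 9 members with their SE in 3 comparisons, D18 against D7, D32 against D18 and D32 against D7; filled points passed an adjusted p of 0.05 in edgeR's quasi-likelihood test. Grm6 changes mainly at D32 against D18 (7.80), Pcp2 mainly at D18 against D7 (8.09), and Trpm1 lies below 0 in both comparisons with D7.

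Is the Trpm1 RNA of D32 the same as that of D7? It was not: at D32 most of the estimated counts lay in transcripts that begin at the upstream start. At D7 nearly all of them lay in transcripts of the downstream start. These shares are not scaled by transcript length, and longer transcripts yield more counts, so they are not shares of RNA molecules. The upstream start made up 73.3, 80.3 and 72.1% of the Trpm1 counts at D32, against 0.198, 0.808 and 0.594% at D7. The downstream start made up 14.9, 10.7 and 15.4% at D32, against 94.6, 94.6 and 94.3% at D7. The libraries of the 2 days did not overlap in either share, and both starts together held 88.9% of the counts at D32 and 95.03% at D7.

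In a test of usage over all genes with at least 2 groups of starts (edgeR diffSpliceDGE), the upstream start of Trpm1 was used more at D32 (log2 usage 4.98, adjusted p = 1.6e-08) and the downstream one less (log2 usage −1.93, adjusted p = 1.4e-08). At gene level Trpm1 passed with an adjusted p of 2.6e-08, and 10.5% of all 7915 genes in that test passed. With the library set as a term, the adjusted p of the upstream start was 2.7e-07. That term rests on D10 to D25 and cannot separate set from day at D32 against D7. Within D10 to D25 the upstream share lay between 0 and 8.79% in the 6 libraries of the smaller set and between 0 and 9.18% in the 12 of the larger set.

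The level of each start followed its own course. These levels are CPM of the transcript table, scaled over start groups, and their sums exceed the gene-level CPM of Trpm1 at D32, so the 2 scales are not set against each other. Upstream transcripts stood at 34.2, 34.2 and 26.7 CPM at D32, against 0, 0.2999 and 0.688 CPM at D25 and 1.73, 6.37 and 4.49 CPM at D7. All 3 D32 libraries were above all others of these days, with a log2 change of 6.57 (SE 1.27) against D25 and of 2.92 (SE 1.03, adjusted p = 0.023) against D7. Downstream transcripts stood at 6.93, 4.56 and 5.71 CPM at D32, against 8.87, 2.51 and 6.50 CPM at D25 and 829, 746 and 712 CPM at D7. They were 133-fold lower at D32 than at D7 (log2 change −7.05, SE 0.78, adjusted p = 4.7e-08), while against D25 their log2 change was −0.06 (SE 0.64) and the libraries overlapped. Of the internal start groups, 2 were also higher at D32 than at D25: the one at 64244811 stood at 2.54 ± 0.359 CPM at D32 and 0.0704 ± 0.0630 CPM at D25 (log2 change 4.92, SE 0.81), and the one at 64226581 at 1.67 ± 0.416 CPM at D32 and 0.446 ± 0.0960 CPM at D25 (log2 change 1.89, SE 0.52). In CPM the upstream group had the largest of these 3 differences. Of all tested start groups 49.8% were called at D32 against D7 and 11.5% at D32 against D25.

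**Figure D3:**
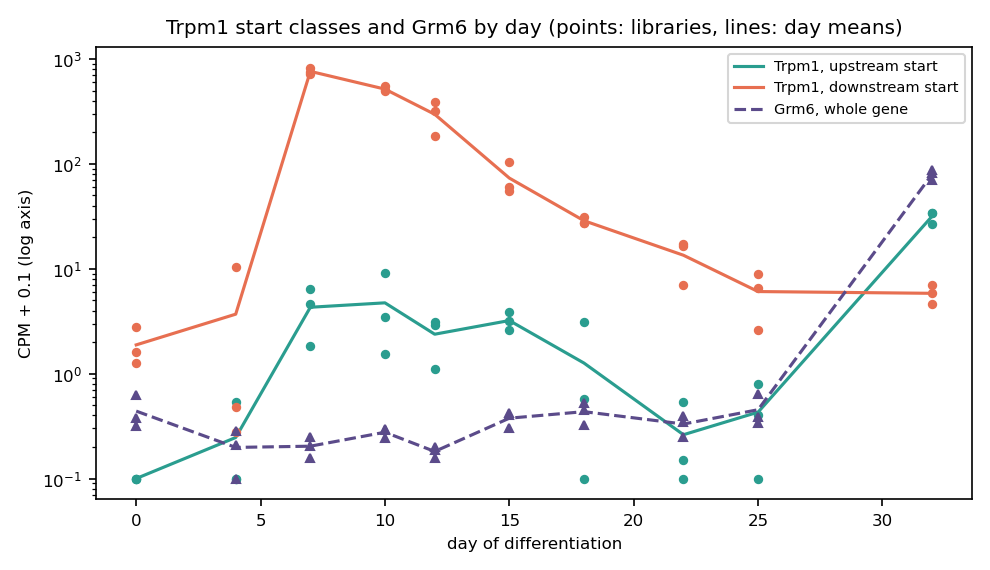
Trpm1 transcripts grouped by where they begin: level of the upstream and downstream start groups (CPM, log axis) by day. A dashed line gives the gene-level CPM of Grm6, which is scaled otherwise than the start groups, so only its course by day is to be read. Points are libraries and lines join day means (n = 3). Shares of all Trpm1 counts are not drawn. The upstream group holds 75.2% of these counts at D32 and 0.533% at D7, the downstream group 13.7% at D32 and 94.5% at D7.

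Single transcripts show the same exchange, and also where it ends. Trpm1-003, a protein-coding transcript of 5711 bases and 27 exons that spans the gene, made up 61.5 ± 3.99% of Trpm1 counts at D32 and 0.299 ± 0.281% at D7. Trpm1-001, the other long upstream form with 27 exons, made up 12.4 ± 1.77% at D32 and 0.222% at D7. Their coding regions are 4866 and 4884 bases long in GENCODE M21, against 1329 bases in Trpm1-008, a downstream transcript of 11 exons that ends at 64218735, well short of the last exon. Trpm1-008 made up 3.20 ± 0.593% at D32, against 38.4 ± 2.99% at D7, a difference of −35.2 percentage points (usage adjusted p = 5.2e-07).

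Most of the remaining D7 counts lay in transcripts annotated with a retained intron. Trpm1-007 made up 7.90 ± 1.79% at D32 and 34.5 ± 2.20% at D7, and Trpm1-006 made up 0.802% at D32 and 18.4 ± 0.689% at D7. Trpm1-005, a downstream form of 27 exons with a coding region of 4518 bases, was near 0 at D32 and made up 2.42 ± 0.251% at D7. The 4 transcripts that reach the last exon thus held 69.3, 80.3 and 72.1% of the counts at D32, against 2.39, 3.46 and 2.96% at D7 and 9.12, 12.9 and 8.61% at D25. Of 16 Trpm1 transcripts tested for level, 10 were lower at D32 than at D7 and 0 higher, with 39% of all tested transcripts called. The level of Trpm1-003 alone had a log2 change of 3.51 (SE 1.50, adjusted p = 0.075). How kallisto shares reads among 23 overlapping transcripts bears on each single share more than on the sums by start.

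**Figure D4:**
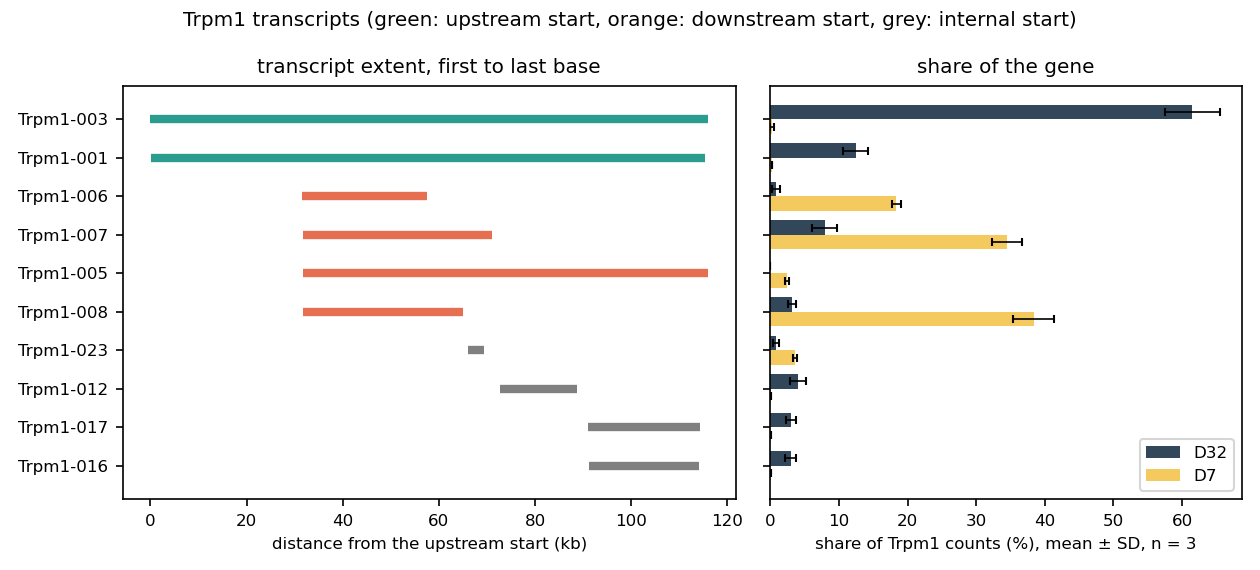
Trpm1 transcripts to scale, as distance in kb from the first 5′ end, with their share of Trpm1 counts (percent, mean ± SD, n = 3) at D32 and D7; upstream, downstream and internal starts are coloured apart. Trpm1-003 holds 61.5% at D32 and 0.299% at D7, and the short Trpm1-008 holds 3.20% at D32 and 38.4% at D7.

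Pigment cell genes were also high at D7, when Trpm1 peaked, but their own high point came at D10. Of 17 tested genes of melanosomes and pigment epithelium 11 were higher and 0 lower at D7 against D4 (median log2 change 3.49). In that step 42.8% of all tested genes were called in either direction, and 37.8% were at D10 against D7. At D10 against D7, 9 of 17 were higher and 0 lower (median 1.42) and their sum was 1443 CPM at D10 and 1018 CPM at D7, while Trpm1 averaged 573 CPM at D10 and 870 CPM at D7. Of the 17 genes 4 were higher and 11 lower at D32 against D7 (median −1.81), against 34% and 31.5% of all tested genes. Pmel, the melanosome fibre protein, stood at 5.22 ± 4.35 CPM at D32 and 598 ± 89.4 CPM at D7. Dct, an enzyme of melanin synthesis, stood at 9.47 ± 4.44 CPM at D32 and 164 ± 7.93 CPM at D7, and the pigment cell factor Mitf at 6.17 ± 1.67 CPM at D32 and 122 ± 14.7 CPM at D7. Rpe65, of the visual cycle of pigment epithelium, was at 0.0166 CPM at D32 and at 0 at D7. At D4 the pigment genes summed to 53.7 CPM in replicate 3, against 24.4 and 19.4 CPM in replicates 1 and 2, and Trpm1 was likewise highest in replicate 3. The D7 libraries are labelled as dissected neural retina, and which cells held the Trpm1 RNA of D7 was not tested.

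Among the D32 libraries the pigment genes and the gene total of Trpm1 ranked differently. The summed pigment level was 475, 42.0 and 382 CPM in replicates 1 to 3, mostly from Ttr (237 ± 207 CPM), a secreted carrier protein of pigment epithelium and choroid plexus, while Trpm1 was at 35.7, 30.9 and 27.9 CPM. Replicate 2, the library with the lowest pigment sum, had the highest upstream share of Trpm1 counts (80.3%). These are ranks of 3 libraries, and which cells held the Trpm1 RNA of D32 was not tested. At D25 the pigment sum was 51.1 to 80.7 CPM.

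Gnao1 also changed its transcripts. The shared start of Gnao1-001 and Gnao1-002, 2 protein-coding forms, at 93810636 to 93810840 held 85.0 ± 2.11% of Gnao1 counts at D32 and 34.6 ± 1.24% at D7. Gnao1-003, which begins at 93811313 and is a processed transcript in the deposited table, held 3.24, 3.12 and 3.11% at D32, against 55.4, 60.1 and 56.9% at D7. The days did not overlap in either share. Its share was 24.3 ± 6.17% at D18 and 6.12 ± 0.733% at D25, so the exchange was nearly over by D25, when Trpm1 still had a downstream share of 81.5 ± 7.90%.

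Levels of the 2 Gnao1 starts moved in opposite directions. The shared start stood at 136, 140 and 149 CPM at D32, against 11.6, 9.28 and 8.68 CPM at D7, with a log2 change of 3.84 (SE 0.28, adjusted p = 3.3e-11). Gnao1-003 stood at 5.29, 5.19 and 5.30 CPM at D32, against 18.09, 15.9 and 14.9 CPM at D7, with a log2 change of −1.62 (SE 0.20, adjusted p = 2.0e-07). The gene total, higher at D32 by a log2 change of 2.63, hides the fall of the second start. In the start usage test Gnao1 passed with an adjusted p of 1.8e-09.

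**Figure D5:**
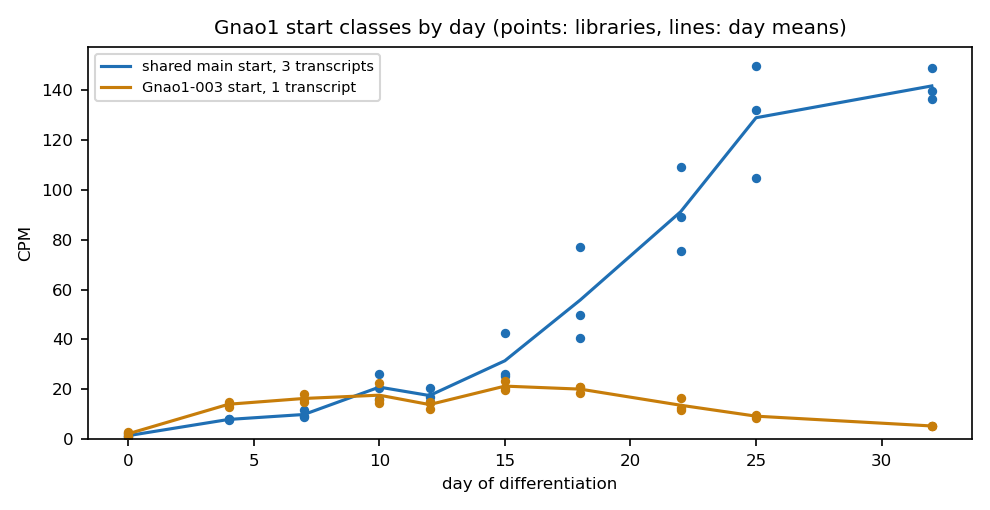
Levels (CPM) of the shared start group and the Gnao1-003 start group of Gnao1 by day. Points are libraries and lines join day means (n = 3). Shares of all Gnao1 counts are not drawn. The shared start of Gnao1-001 and Gnao1-002 goes up to 85.0% of these counts at D32, and Gnao1-003 down to 3.16%.

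In the test by transcript, 4 of the 8 members with more than 1 transcript passed at D32 against D7 (Trpm1, Gnao1, Rgs11 and Pcp2), against 13.1% of all 10808 genes in that test. Trpm1 had an adjusted p of 2.0e-06 and Gnao1 of 1.4e-07. Rgs11 had an adjusted p of 0.013 and Pcp2 of 0.026, but at D7 Pcp2 had 5.49, 0.846 and 4.02 estimated counts in all. Grm6 (adjusted p = 0.357) and Rgs7 (0.375) did not pass, and Gpr179 and Lrit3 were at an adjusted p of 1. At D32 Grm6-001, the protein-coding form of 4291 bases, held 60.5 ± 4.59% of Grm6 counts, Grm6-003 28.4 ± 2.78% and Grm6-002 11.1 ± 1.87%; Grm6 also overlaps the antisense gene Gm12660. Nyx has 1 transcript.

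Partners of the complex that are not members also rose, in part before D32. Of 15 partner genes 14 were higher and 0 lower at D32 against D18 (median log2 change 2.74), against 20.6% of all genes higher. At D32 against D25, 9 were higher and 0 lower (median 1.11), against 9.31% of all genes higher. Already at D22 against D18, 9 were higher and 0 lower, and at D25 against D22, 5 and 0, steps where edgeR called 0 members. In either direction 8.2% and 2.47% of all tested genes were called in these steps. Of 12 rod and cone genes, 7 were higher and 0 lower at D22 against D18, and 5 and 0 at D25 against D22. Which cells held the partner RNA was not tested. Prkca and Gng13 among the partners are also bipolar markers. Gnb3, the beta subunit of Go in these cells, stood at 676 ± 38.9 CPM at D32 and 215 ± 56.1 CPM at D18, a log2 change of 1.65 (SE 0.28). Gnb5, the partner that RGS7 and RGS11 need for stability, stood at 170 ± 31.7 CPM at D32 and 31.3 ± 4.25 CPM at D18. The calcium channel subunit genes Cacnb2 and Cacna1f, which also serve photoreceptor synapses, had log2 changes of 6.30 (SE 0.37) and 5.58 (SE 0.33), and Rgs9bp, an RGS anchor of photoreceptors and bipolar cells, of 5.00 (SE 0.41). Dag1, which encodes dystroglycan, was the partner that did not pass at D32 against D18 (155 ± 10.4 CPM at D32, 162 ± 11.5 CPM at D18).

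Markers of ON bipolar cells were read beside the members. This list was chosen with earlier results of these data known, so it is no independent test of the label. Of 18 ON and pan-bipolar markers 13 were higher and 2 lower at D32 against D25 (median log2 change 1.63, against −0.02 in all tested genes). At D32 against D18, 12 were higher and 4 lower (median 1.99). Among all tested genes 9.31% were called higher at D32 against D25 and 20.6% at D32 against D18. Bhlhe23, a factor needed for rod bipolar cells, stood at 28.4 ± 3.83 CPM at D32 and 0.0325 ± 0.0282 CPM at D25, and Gabrr1, a GABA receptor subunit of bipolar terminals, at 39.1 ± 1.97 CPM at D32 and 0.187 ± 0.212 CPM at D25. Prkca, which marks rod bipolar cells, stood at 118 ± 3.49 CPM at D32 and 54.8 ± 11.4 CPM at D25. Cabp5, a calcium-binding protein of bipolar cells, stood at 34.1 ± 5.52 CPM at D32 and 6.71 ± 1.67 CPM at D25. Isl1, also on the ganglion cell list, did not pass edgeR's test at D32 against D18 (log2 change −0.07, SE 0.37, adjusted p = 0.902). Otx2, shared with photoreceptors, was lower at 309 ± 32.7 CPM at D32 and 685 ± 39.8 CPM at D25. The summed level of the 18 markers, to which Otx2 adds most at D25, was also lower, at 1090 to 1132 CPM at D32 and 1259 to 1601 CPM at D25, without overlap.

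Other cell types moved over the same days. Among all tested genes 20.6% were called higher and 44.3% in either direction at D32 against D18. At D32 against D25 these shares were 9.31% and 23.1%. Of 12 rod and cone genes 9 were higher and 2 lower at D32 against D18, and 3 higher and 1 lower at D32 against D25; their sum was 7165 to 9202 CPM at D32 and 4221 to 6721 CPM at D25. Of 8 OFF bipolar genes, 2 of which are also on the ON and pan-bipolar list, 4 were higher at D32 against D25, among them Vsx1 (6.08 ± 0.401 CPM at D32, 0.287 ± 0.168 at D25). Of 10 Müller glia genes 5 were higher and 1 lower, of 11 amacrine genes 0 were higher and 1 lower, and of 9 ganglion cell genes 2 were higher and 4 lower in that comparison. Whether these shifts in the other cell types take part in the change of the members was not tested.

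Pcp2 is also a Purkinje cell gene, so 7 tested genes of Purkinje cells and hindbrain were read beside it. Their sum was 57.2 to 76.5 CPM at D32 and 24.0 to 35.4 CPM at D18, and 3 of 7 were higher and 0 lower in that comparison (Car8, Calb1 and En2). At D32 against D25, 4 of 7 were higher and 0 lower (Car8, En2, Itpr1 and Egr2; median log2 change 1.71). Among all tested genes 20.6% were called higher at D32 against D18 and 9.31% at D32 against D25. Car8 is also on the bipolar list and Calb1 on the horizontal cell list. The hindbrain genes Hoxa2 and Hoxb2 were at 0.0491 and 0.0649 CPM at D32, and Pvalb, of Purkinje cells, was at 0.0967 CPM.

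The genes whose course was most like that of Grm6 and of Trpm1 were found by Pearson's r of log2(CPM + 1) over the 30 libraries, among 12879 genes. For Grm6 they were Gm29236 and Gabrr1 (r = 0.989 each), Tnnt2 (0.973), Gsg1 (0.971), the guanylate cyclase activator Guca1b (0.964) and the calcium-binding protein Scgn (0.954). All 6 were highest at D32, which alone gives a high r, since the 3 libraries of that day share day, medium and library set. For Trpm1 they included Col11a1 (0.949), the pigment epithelium gene Mfrp (0.943), Igf2 (0.941), the melanosome gene Tspan10 (0.941) and Slc38a8 (0.936). None of the 6 genes nearest to Grm6 was among the 6 nearest to Trpm1.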

How the data were processed

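Poly(A) RNA-seq libraries from a stranded kit were studied at 10 days, 3 a day. The submitters' processing notes name Trimmomatic 0.36 for trimming, kallisto 0.42.4 with GRCm38.p4 for quantification and edgeR for normalisation. The authors deposited an estimated count per gene and per transcript, and a signal per gene, a CPM that the authors scaled by TMM; how genes were summed from transcripts and whether strand was used are not given in the sources used here. A further 9 columns match no listed sample and were not used.

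Estimates were rounded and fitted in R 4.3.3 with edgeR 4.0.16: genes kept by filterByExpr over the day groups (at least 10 counts, total 15), TMM, 1 mean per day over 30 libraries, quasi-likelihood F tests and Benjamini-Hochberg adjustment over 19897 genes (at least 99.7% of each library's counts) or 58369 transcripts, called below 0.05. Transcript usage was tested by diffSpliceDGE. Transcripts with 5′ ends within 300 bases were summed into 37093 start groups, a step added after seeing the data, as was the split into library sets at 50% Rpl3 pseudogene counts. Fits were tested on simulated data. Deviations of same-numbered libraries from their day means correlated between 0.162 and 0.451 in all 15 pairs from neighbouring days, D10 to D25. Replicate 2 is also the smaller library set on these days, so pairing by number and by set cannot be told apart. TPM used transcript lengths of the deposited table, and 68 of 70 member transcripts had the same coordinates in GENCODE M21, which gave exon and coding lengths. Alternatives were library size only, DESeq2 1.42.0, no filter, limma 3.58.1 on the deposited CPM with 1 or 0.1 added, the replicate number as a block, the library set as a term, subsets of libraries and leaving out each library. Named genes are all 9 members, for each list up to 4 genes by level or change, and the 6 genes most like Grm6 and Trpm1; for lists, other genes are named beside these, chosen after their values were seen. Some genes that this rule names are not reported here. Members and lists were chosen with earlier results of these data known.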

Additional observations from a re-analysis of the deposited data

How the results depend on the processing

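The counts of called members over all days, in the 3 spans and over the 9 steps together stayed within 1.5 times under every alternative run. In single steps some did not: against 3 calls at D18 against D15, DESeq2 and limma with 1 added gave 6, and leaving out D4 replicates 2 and 3 together, or D4 replicate 3 alone, gave 5; against 4 calls, limma with 1 added gave 2 at D7 against D4 and library size only gave 2 at D15 against D12. Leaving out 1 library of the days compared passed this ratio at D4 against D0 (5 calls without D4 replicate 3, against 3), D7 against D4 (2 without D4 replicate 1, against 4), D10 against D7 (1 without D7 replicate 3, against 3), D12 against D10 (1 without D10 replicate 3, against 2), D15 against D12 (2 without D12 replicate 3 or D15 replicate 3, against 4) and D18 against D15 (1 without D18 replicate 3, against 3). Leaving out 1 library at a time, 9 of 9 members were called over all days and at D32 against D7, 8 to 9 at D18 against D7, 7 to 8 at D32 against D18, and 21 to 30 times over the 9 steps. The Trpm1-008 difference lay between −36.6 and −33.6 percentage points, and that of the upstream start between 72.2 and 76.3. Of 3240 single values recomputed without 1 library, 3170 kept direction and call, 55 lost the call, 14 gained one and 1 turned round. That one was Trpm1 at D4 against D0, with a log2 change of 0.61 over all libraries, −1.89 without D4 replicate 3 and at most 1.11 otherwise. Of 1096 single values under the other alternatives, 1062 kept direction and call. For pairs among D7, D18 and D32 the replicate numbers did not pair the libraries: correlations of same-numbered libraries lay between −0.102 and 0.175, with 2 of 9 over 0.1. With the replicate number as a block, 9, 9, 8 and 9 members were called over all days and in D18 against D7, D32 against D18 and D32 against D7, and 27 times over the steps; the calls gained were those of Lrit3 at D15 and D18, and no other call changed. The causes of the changed calls were not tested. Below about 1 CPM the members rest on few counts, so early differences of Grm6, Nyx and Lrit3 are limited by depth.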

Other observations

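Relatives of the members moved in both directions. Of 24 paralogues 12 were higher and 5 lower at D32 against D18 (median log2 change 0.59, against −0.01 in all tested genes). Among all tested genes 20.6% were called higher and 44.3% in either direction in that comparison. Gpr158, the closest relative of Gpr179, stood at 14.8 ± 1.12 CPM at D32 and 1.96 ± 0.421 CPM at D18 (log2 change 2.91, SE 0.43). Trpm3, a relative of Trpm1 that is also made in pigment epithelium, was lower at 124 CPM at D32 and 211 ± 23.4 CPM at D18 (log2 change −0.77, SE 0.21), and at D7 it stood at 171 CPM, against 0.873 ± 0.871 CPM at D4. Among other cell types, 5 of 10 pan-neuronal genes were higher and 4 lower at D32 against D18, as were 1 and 2 of 6 horizontal cell genes and 1 and 0 of 8 fibroblast genes.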
